A study of Mus musculus with 22 samples.

Results

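Germ cells that have left the spermatogonial stage were set against KIT-positive spermatogonia by ATAC-seq, in which Tn5 transposase cuts accessible DNA and the cuts are counted in peaks. The later cells were 5 libraries labelled as spermatocytes or round spermatids, and the spermatogonia were the 3 control libraries of MCAM-medium KIT-positive cells, so 8 of the 22 libraries of the series were compared. The members were chosen by library name alone, and no measured value entered the choice. All were purified by FACS from testes of C57BL/6 mice aged 8 to 12 weeks, under a protocol that gives tamoxifen to the mice. The later cells carried 1 TertTdtomato allele (genotype TertTdtomato/+). The KIT-positive cells carried TertCreER/+:Rosalsl-Tdtomato/+, a tamoxifen-dependent Cre at Tert and a Cre-activated reporter at Rosa26, and were taken on day 7 after tamoxifen. The labels name no day for the later cells. Both genotypes keep 1 unmodified Tert allele, but cell stage, genotype and source cannot be told apart in this comparison. The names of all 5 later libraries carry the same tag, Het1, and no label says whether they came from separate mice. The edgeR p-values rest on the spread within the groups of 13 heterozygous libraries, which also include control MCAM-high and MCAM-medium spermatogonia. The variation among the 5 later libraries is part of that spread and may be technical only.

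The 5 later libraries were kept as 1 group because the labels conflict. For 4 of them the sample title and the library name give different cell types: replicates 1 and 2 are titled spermatocytes but named RoundSpermatid, replicate 3 is round spermatid in both, and replicates 4 and 5 are titled round spermatids but named Spermatocyte. Total counts in peaks ran from 1433230 to 3358377 in later cells and from 922085 to 1970643 in KIT-positive cells. Across the 73134 peaks tested, Pearson's r of log2(CPM + 1) between libraries was 0.84 to 0.90 within the later group, 0.77 to 0.84 within the KIT-positive group and 0.28 to 0.41 between them. CPM are counts divided by the TMM-scaled library total, times 1e+06. Of the nonzero counts, 49.3 to 49.9% were even in the later libraries, against 50.7, 62.5 and 73.9% in KIT-positive replicates 1, 2 and 3. Its part in the results was examined only by leaving libraries out.

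Spermatogonia divide by mitosis, and KIT, the receptor for stem cell factor, marks those committed to differentiate. Spermatocytes pair and recombine their chromosomes in meiosis, during which most of the X and Y chromosomes is silenced in a sex body. Round spermatids then begin to build the acrosome, an enzyme-filled cap, and the flagellum, and later replace histones first with transition proteins and then with protamines. Many genes of these steps are read only in the testis, often from short promoters with cAMP-response elements, which the activator CREM binds.

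Accessibility differed between later cells and KIT-positive spermatogonia over much of the genome, in both directions. In the edgeR quasi-likelihood test with Benjamini-Hochberg adjustment, 21368 of 73134 peaks were higher in later cells (29.2%) and 16662 were lower (22.8%), a total of 52.0%. With loess offsets the split turned, to 15599 higher and 16455 lower. By the main scaling, 4302 called peaks were over 16-fold higher by the fitted value and 397 over 16-fold lower. Of the called peaks, 19154 higher and 13077 lower ones did not overlap between the 5 and the 3 libraries. All 3 KIT-positive libraries had 0 counts at 1457 of the peaks called higher, and all 5 later libraries had 0 counts at 17 of those called lower. The later group had more libraries and a higher mean total (2.03e+06 against 1.41e+06 counts), so 0 counts in all is harder to reach there. The numbers of peaks at 0 counts, and of those over 16-fold, are therefore not like for like between the directions. A lower value in a bulk library cannot separate fewer cells with an accessible site from less access per cell. Scaling set the zero point: the median log2 fold change over all peaks was 0.12 with TMM and 0.32 with DESeq2, and folds are to be read against it.

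**Figure D1:**
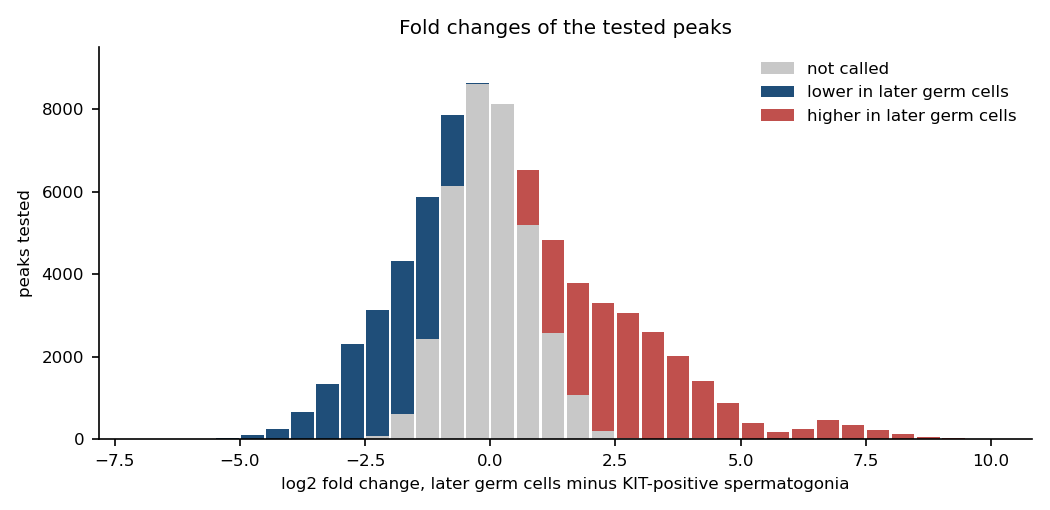
Number of tested peaks (vertical axis) by fitted log2 fold change, later germ cells minus KIT-positive spermatogonia (horizontal axis), in steps of 0.5, coloured by call at an adjusted p under 0.05. The 21368 higher peaks reach the step from 9.5 to 10, partly from peaks with 0 counts in all KIT-positive libraries whose fitted values are not bounds, while the lowest step filled is -7 to -6.5, with 7 lower peaks.

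Peaks away from genes were called higher more often than lower, and peaks at gene ends about equally often in each direction. A peak counts as a gene end if no more than 1 kb separates it from where an annotated gene starts or stops. Such a peak need not lie at the promoter of the gene it is named by. Of 21785 tested peaks at gene ends 25.6% were higher and 26.1% lower in later cells, of 26079 in gene bodies 30.7% were higher and 24.8% lower, and of 25270 intergenic peaks 30.8% were higher and 17.9% lower. With the strongest gene-end peak taken for each of 20715 genes (17313 separate peaks, since neighbours can share), 4953 genes were higher (23.9%) and 5924 lower (28.6%), with a median log2 fold change of -0.11. With DESeq2 that split turned, to 6168 higher and 4734 lower. Of the protein-coding genes, 30.9% of 15141 were lower and 19.6% were higher, whereas among 5573 long noncoding RNA genes 22.3% were lower and 35.6% higher. The difference between these classes was not tested.

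The share of counts in each class of peak was compared with an exact permutation test, and no share passed after adjustment over 6 shares. Gene-end peaks held 55.6, 53.2, 51.8, 51.3 and 52.1% of the counts in later replicates 1 to 5, and 54.4, 59.2 and 64.2% in KIT-positive replicates 1 to 3. The ranges overlapped (difference -6.46 percentage points, two-sided exact permutation p = 0.0714, adjusted over 6 shares 0.0857). Intergenic peaks held 21.8 ± 1.097% (SD, n = 5) against 17.2 ± 2.78% (SD, n = 3; exact permutation p = 0.0357, adjusted 0.0536), without overlap. The 1000 strongest peaks of each library held 10.6 ± 0.43% (SD, n = 5) of later counts and 16.03 ± 2.41% (SD, n = 3) of KIT-positive counts, also without overlap (exact permutation p = 0.0357, adjusted 0.0536). The smallest p that 56 assignments allow is 0.0357.

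The label of the later cells was examined at 4 spermatid genes. Hils1, a linker histone of spermatids, had 36.0, 44.1, 57.3, 46.9 and 46.1 CPM in later replicates 1 to 5, against 0.747, 2.14 and 1.16 CPM in the KIT-positive libraries, in replicate order. Smcp, a protein of the sperm mitochondrial capsule, had 29.7, 35.5, 29.0, 41.8 and 40.7 CPM against 1.49, 0 and 1.16 CPM. The Smcp peak lay 706 bp from the start site of the gene. Every later library was far above every KIT-positive library at both Hils1 and Smcp, and no later library was low. Odf1, an outer dense fibre protein of the flagellum, had 50.03, 49.02, 55.0, 65.6 and 55.9 CPM against 1.49, 6.42 and 0 CPM. Acr, the acrosomal protease acrosin, had 44.4, 55.1, 51.3, 47.6 and 46.7 CPM against 1.49, 4.28 and 3.49 CPM. The log2 fold changes were 5.11 ± 0.52 for Hils1 (SE; adjusted p from edgeR 3.58e-12), 5.06 ± 0.57 for Smcp (8.65e-11), 4.68 ± 0.49 for Odf1 (1.29e-11) and 3.99 ± 0.43 for Acr (3.27e-11). The 4 peaks summed to 160 to 202 CPM in later libraries, 5.23 to 12.8 CPM in KIT-positive ones and 0.688 to 4.70 CPM in control MCAM-high ones. The 2 libraries titled spermatocytes (replicates 1 and 2) overlapped with the 3 titled round spermatids at Smcp and Acr and lay below all 3 of them at Hils1 and Odf1, a difference that was not tested. All 5 were far above the spermatogonia.

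**Figure D2:**
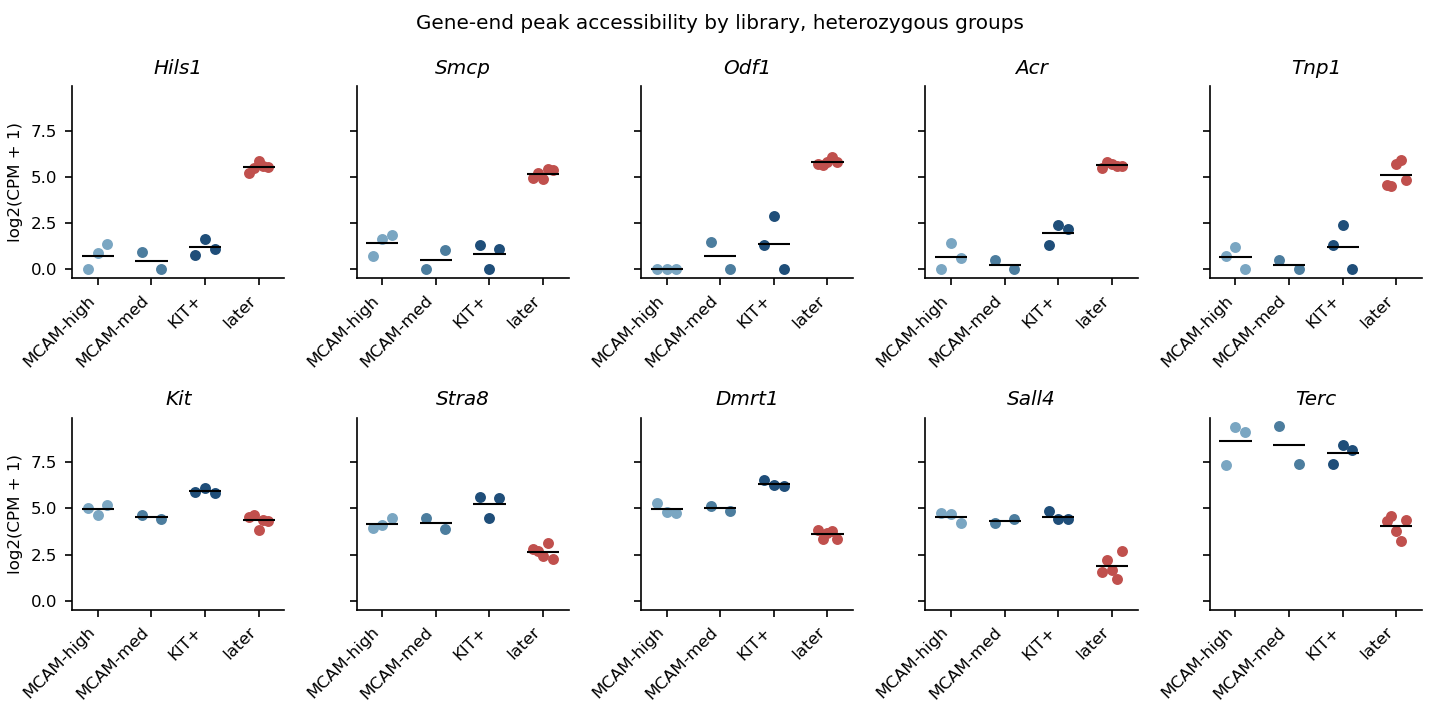
Accessibility at the gene-end peak, as log2(CPM + 1), of 10 genes in each heterozygous library of control MCAM-high, MCAM-medium and KIT-positive spermatogonia and later germ cells; points are libraries and bars are means. The 5 later libraries lie above all spermatogonial ones at Hils1, Smcp, Odf1, Acr and Tnp1 and below all of them at Stra8, Dmrt1, Sall4 and Terc, while at Kit they overlap with the MCAM-medium libraries.

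Genes of nuclear condensation were higher in later cells at 8 of 13 tested members (on 11 peaks), with 2 lower and a median log2 fold change of 2.19. Over all gene ends 23.9% were higher and 28.6% lower, and the counts of this and the other lists are to be read against those shares. Tnp1, a transition protein, had 22.7, 22.1, 51.3, 58.5 and 27.7 CPM in later replicates 1 to 5 and 1.49, 4.28 and 0 CPM in KIT-positive ones, a log2 fold change of 4.48 ± 0.58 (SE; adjusted p from edgeR 4.50e-09). This peak lay 970 bp from the nearest end of Tnp1, and a different peak, over the start site, rose by 3.84. The later libraries differed among themselves at the first of these Tnp1 peaks by more than at Hils1, and their lowest value was still above every KIT-positive value. A peak shared by Prm2 and Prm3, protamine genes of 1 cluster, had 41.7 to 73.6 CPM against 4.48 to 6.42 CPM (log2 fold change 3.46 ± 0.39). Prm1, the other main protamine, gained by 3.98 ± 0.64 on that scale. The spermatid linker histone H1f7 and the testis linker histone H1f6 rose as well, by 2.49 and 1.93. H2bc1 and H2ac1, which encode testis histones, share a peak that fell by 0.93. Brdt, Rnf8 and Kdm3a, regulators of the histone exchange, did not pass the test (0.20, -0.53 and -0.24).

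Genes of the acrosome were mostly higher. Of 15 tested members 13 rose, 1 fell (Zpbp2, -0.76) and Dpy19l2 did not pass, and the median log2 fold change was 2.95 against -0.11 over all gene ends. Acrv1, an acrosomal vesicle protein, had 27.3, 24.5, 25.3, 21.9 and 25.5 CPM in later cells, and in KIT-positive cells 2.14 CPM in replicate 2 and 0 in the others. On 2 KIT-positive counts in all, the ratio was 50.5 with a 95% counting interval of 13.8 to 419. Such intervals, and floors of 3 counts, cover counting error only. They take counts as independent, and whether that holds in KIT-positive replicates 2 and 3, with their excess of even counts, was not tested. Spaca4, a sperm surface protein, had 28.3 to 44.1 CPM against 1.16 to 5.35 CPM (log2 fold change 3.58 ± 0.49). Spaca1, of the acrosomal membrane, had 57.0, 58.8, 84.8, 97.1 and 84.7 CPM against 13.5, 15.0 and 22.1 CPM (2.14 ± 0.28), from a higher level in spermatogonia. Spam1, the hyaluronidase of the sperm head, rose by 4.86, Zp3r by 4.77 and Spaca3 by 4.24.

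Genes of the flagellum rose at 20 of 27 tested members, with 2 lower (Tekt5, -0.97, and Catsper2, -0.58) and a median of 1.37, beside 23.9% higher and 28.6% lower over all gene ends. Catsper3, a subunit of the sperm calcium channel, had 23.0, 22.1, 17.1, 27.7 and 32.0 CPM in later cells and 0 counts in all KIT-positive libraries, at least 32.6-fold higher against a floor of 3 counts over the group. Spag16, of the axonemal central apparatus, had 72.7 to 88.9 CPM against 12.7 to 26.2 CPM (log2 fold change 2.18 ± 0.27). Among axonemal genes Dnah8, a dynein heavy chain, rose by 1.19, Spef2 by 1.20 and Ccdc39, which also serves motile cilia, by 1.37. Of 7 tested kinases and signalling genes of spermatids 4 were higher (Tssk1, Tssk3, Tssk4 and Pkdrej, a polycystin-family receptor that is not a kinase) and 1 lower. Tssk1, a testis-specific serine kinase, had 21.7 to 46.1 CPM against 0 to 5.98 CPM (3.66 ± 0.52), Tssk3 had 104 to 129 CPM against 28.9 to 31.4 CPM (1.91 ± 0.24), and Prkaca, the catalytic subunit of protein kinase A, fell by 1.02.

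Testis forms of metabolic enzymes were mostly higher in later cells, and no tested general form was. Of 8 tested testis isozymes 7 were higher and Gapdhs was lower (-0.59). Ldhc, the testis lactate dehydrogenase, had 37.0, 39.8, 29.0, 20.6 and 27.1 CPM in later cells against 6.73, 3.21 and 1.75 CPM (log2 fold change 2.999 ± 0.44). Aldoart1 and Aldoart2, retrogenes of aldolase, rose by 2.57 and 2.06. Of 6 tested somatic counterparts none rose and 3 fell: Pgk1 (-3.32), Pdha1 (-2.59) and Gapdh (-1.59). Pgk1 and Pdha1 lie on the X chromosome, and Cycs, Eno1 and Pgam1 on autosomes did not pass the test (0.13, -0.07 and 0.08), although Cycs passed upward with loess offsets (0.54).

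**Figure D3:**
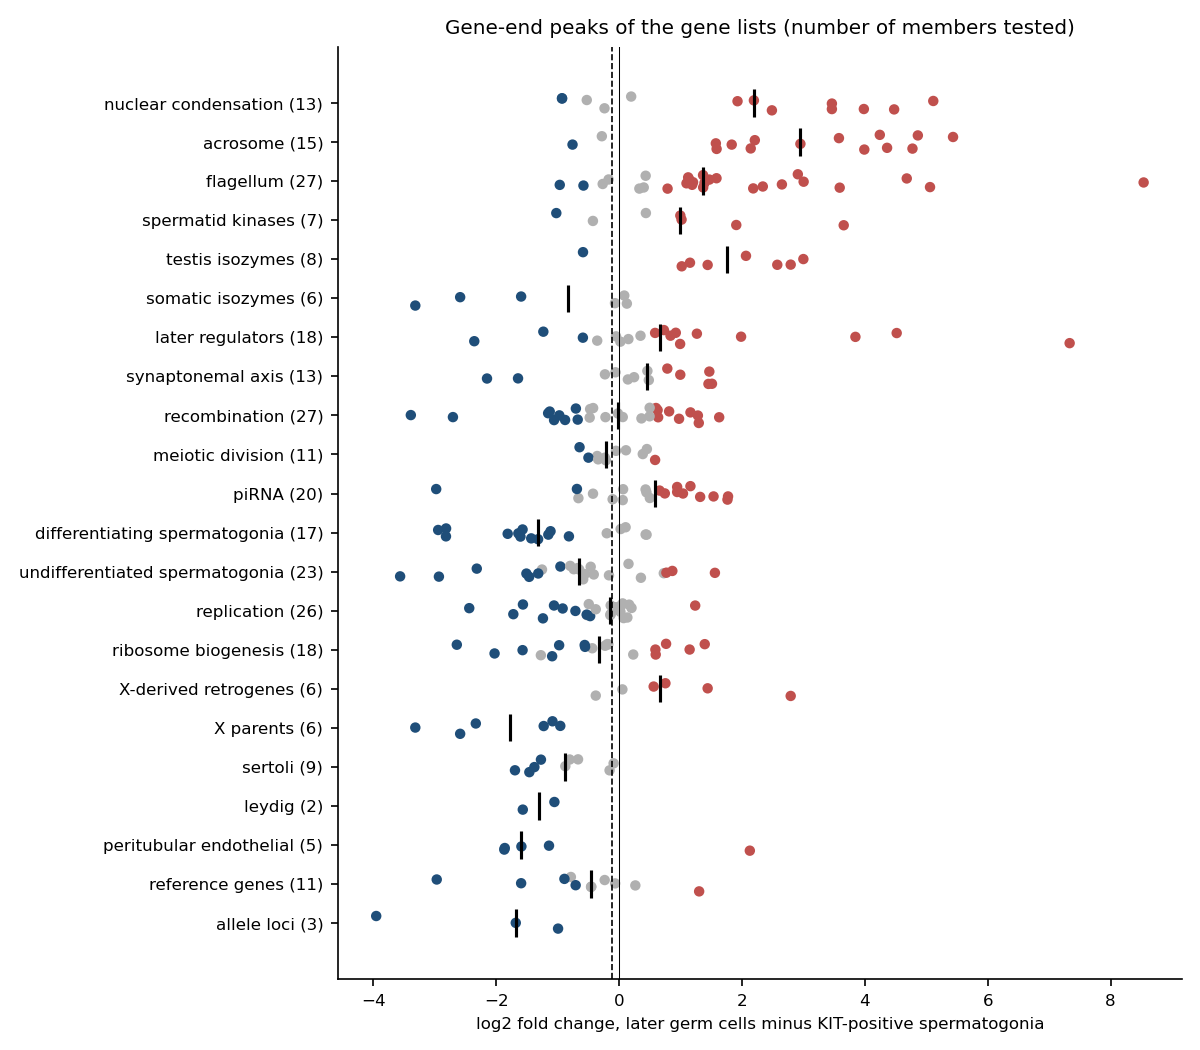
Log2 fold change (later germ cells minus KIT-positive spermatogonia, horizontal axis) of the gene-end peak of each tested member of 22 gene lists; red and blue points were called higher and lower, grey points were not called, short bars are list medians and the dashed line is the median over all gene ends (-0.11). Of these lists, which leave out the spermatid markers and the immune markers, the acrosome list (13 of 15 higher) lies farthest right by median, and the X-linked parent genes (6 of 6 lower) farthest left; the points beyond 7 are Catsper3 and Fhl5, at 0 counts in KIT-positive cells.

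Regulators of the later stages were mixed, with 10 of 18 higher and 3 lower. Spz1, a spermatogenic zip protein, had 69.7, 69.2, 88.5, 82.3 and 62.4 CPM in later cells and 2.99, 0 and 5.24 CPM in KIT-positive ones (log2 fold change 4.52 ± 0.40, adjusted p from edgeR 4.78e-14). Fhl5, the coactivator of CREM also known as ACT, had 7.35 to 15.4 CPM and 0 counts in all KIT-positive libraries, at least 13.8-fold higher. Hsf5, a heat shock factor of spermatocytes, rose from 4.48 to 11.1 CPM to 28.3 to 42.4 CPM (1.99 ± 0.37). The strongest peak at an end of Crem itself fell by 0.59, that of Sox5 by 2.36 and that of X-linked Taf7l by 1.23. Rfx2, a master regulator of ciliary genes in spermatids, was at 0.02 and did not pass.

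Meiotic genes are given by member, since the list of recombination genes lay near the shares over all gene ends. Of 13 tested genes of the chromosome axis 5 rose and 2 fell. Sycp1, the transverse filament of the synaptonemal complex, had 93.4, 80.9, 80.3, 81.0 and 84.1 CPM in later cells against 13.5, 48.2 and 32.6 CPM (1.45 ± 0.26), whereas Hormad1, an axis protein of early prophase, had 12.9 to 16.3 CPM against 47.1 to 74.5 CPM (-2.15 ± 0.25). That peak lay 652 bp from the nearest end of Hormad1, and whether it serves this gene was not tested. Rad21l, a meiotic cohesin, also fell (-1.64). Of 27 recombination genes 9 rose and 9 fell, where all gene ends had 23.9% higher and 28.6% lower, and over the alternatives their median ran from -0.35 to 0.61. Spo11, which makes the breaks that start recombination, had 4.67, 4.90, 0.744, 1.93 and 2.71 CPM against 29.1, 17.1 and 16.9 CPM (-2.70 ± 0.48), while Msh4 and Meiob, which act on recombination intermediates, rose by 1.63 and 1.16. Genes of the piRNA pathway, which silences transposons in germ cells, rose at 10 of 20 and fell at 2. Tdrd5, Piwil1 and Tdrd6 rose by 1.77, 1.76 and 1.54, and Fkbp6 fell from 16.1 to 46.6 CPM to 2.23 to 6.13 CPM (-2.98 ± 0.41). Of 11 genes of the meiotic divisions Cdk1 rose (0.59) and Cdk2 and Hspa2 fell (-0.64 and -0.50), and each of these calls was lost in several alternatives, that of Cdk1 also without KIT-positive replicate 1 or 2 or later replicate 1, 2 or 3 and that of Hspa2 without KIT-positive replicate 3 or later replicate 4 or 5.

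Genes of differentiating spermatogonia were lower or not called. None of 17 tested rose, 12 fell and the median was -1.32. The 12 include Kitl (-1.64), which encodes stem cell factor, the ligand of KIT, and is not a marker of these cells. Kit had 22.3, 23.9, 13.4, 19.9 and 19.0 CPM in later cells against 59.0, 67.4 and 56.5 CPM in KIT-positive cells (log2 fold change -1.61 ± 0.25; adjusted p from edgeR 3.91e-07). The KIT-positive cells were sorted on this receptor. Stra8, the retinoic acid target that opens meiosis, had 3.80 to 7.72 CPM against 21.4 to 48.6 CPM (-2.82 ± 0.34). Dmrt1, a transcription factor that keeps spermatogonia mitotic, had 9.19 to 13.3 CPM against 73.9 to 92.7 CPM (-2.82 ± 0.25), and Sall4, a zinc finger factor of spermatogonia, had 1.29 to 5.43 CPM against 20.3 to 27.6 CPM (-2.94 ± 0.40). No later library reached a KIT-positive one at any of these 4. Of 23 tested genes of undifferentiated spermatogonia 7 fell and 3 rose, a share of lower genes near the 28.6% over all gene ends, so the list as a whole gives no result. Among the 7, X-linked Sox3 fell by 3.56, Zbtb16, the PLZF factor of stem cells, by 2.32 and Etv5, a GDNF target, by 1.51. The 3 that rose were Bcl6b (1.56), Epcam (0.87) and Ddit4 (0.77). The other 13 did not pass, Id4, Foxo1 and Lin28a among them.

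Replication and growth genes shifted at single members. Of 26 replication genes 9 fell and 1 (Rfc4) rose, with a median of -0.14, close to that of all gene ends. Gins2, of the replicative helicase, had 57.3 to 81.5 CPM in later cells and 131, 213 and 269 CPM in KIT-positive ones (-1.56 ± 0.20), Mcm2 fell by 1.72 and Pola1 on the X by 2.44. Of 18 genes of ribosome biogenesis 7 fell and 5 rose. Ncl, the nucleolar protein nucleolin, fell from 214, 256 and 349 CPM to between 57.2 and 76.0 CPM (-2.03 ± 0.18), and Mycn by 2.64, whereas Pes1 rose by 1.39.

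At the alleles in the genotypes, all 3 loci were lower in later cells. Tert had 5.67, 5.51, 6.69, 6.43 and 9.77 CPM against 29.9, 13.9 and 21.0 CPM (-1.68 ± 0.36; adjusted p from edgeR 8.19e-05). Terc, the RNA template of telomerase, a separate gene, had 19.3, 23.3, 12.6, 8.36 and 19.5 CPM against 165, 338 and 288 CPM (-3.95 ± 0.30; adjusted p from edgeR 1.38e-16), the largest of these 3 changes. Gt(ROSA)26Sor, the reporter locus of the KIT-positive mice only, had 145 to 183 CPM against 236, 327 and 402 CPM (-0.99 ± 0.17). Control MCAM-high and MCAM-medium libraries had 151 to 184 and 155 to 175 CPM there, close to the later cells, but 162 to 676 and 165 to 693 CPM at Terc. At Tert and at Gt(ROSA)26Sor the groups carry different alleles, so stage and allele cannot be told apart there.

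Most gene ends on the X chromosome were lower in later cells. Of 629 tested X gene ends 392 were lower (62.3%) and 26 higher (4.13%), with a median log2 fold change of -1.53. These shares are set beside the autosomes without a test. On the 19 autosomes 27.5% of 20078 were lower and 24.5% higher, and the medians of single autosomes ran from -0.36 to 0.08. Peaks on the X held 0.758, 0.766, 0.523, 0.488 and 0.592% of the counts in later replicates 1 to 5 and 1.63, 1.44 and 1.61% in KIT-positive replicates 1 to 3. The groups did not overlap (exact permutation p = 0.0357, adjusted 0.0536, so the share missed the threshold), and the control MCAM-high and MCAM-medium libraries lay higher still, at 2.004 to 2.42% and 2.07 to 2.28%. Within the later group the 2 libraries titled spermatocytes had 0.758 and 0.766%, and the 3 titled round spermatids 0.488 to 0.592%, while by library name the ranges overlapped (0.523 to 0.766% for RoundSpermatid, 0.488 to 0.592% for Spermatocyte). On the Y, 25 peaks were tested, of which 3 were higher and 7 lower. Zfy2, a zinc finger gene of the Y that is read in spermatids, rose by 3.85 ± 0.71 on the log2 scale, though a close copy, Zfy1, could share its reads.

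**Figure D4:**
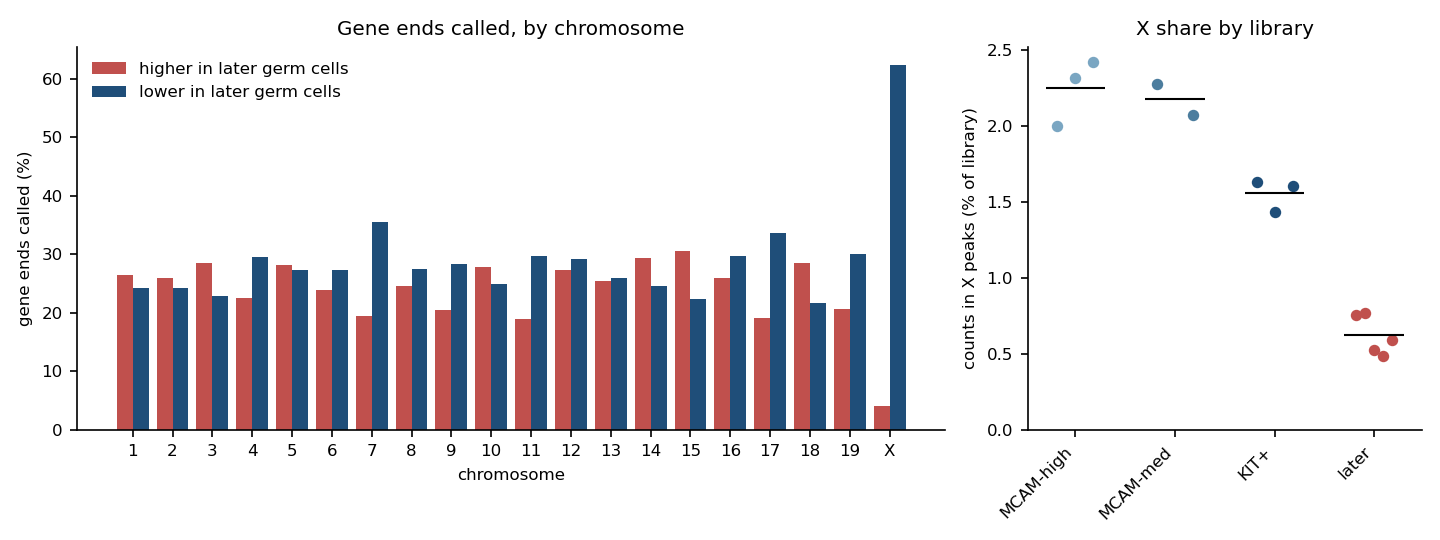
Left, percent of gene ends called higher (red) or lower (blue) in later germ cells for each autosome and the X; right, percent of the counts of each heterozygous library in X peaks, with points for libraries and bars for means. The X has 62.3% lower and 4.13% higher gene ends, and the later libraries hold 0.488 to 0.766% of counts on the X, below the 1.44 to 1.63% of KIT-positive libraries.

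The lower X genes included genes used in most cells. Hdac6, a cytoplasmic deacetylase, had 4.00, 3.68, 4.46, 0.643 and 2.17 CPM in later cells against 99.4, 76.0 and 141 CPM (-5.09 ± 0.30, adjusted p from edgeR 4.62e-21). Hprt, a purine salvage enzyme often taken as a reference, had 3.06 to 6.34 CPM against 20.2 to 52.4 CPM (-2.97 ± 0.34). Some X genes rose. The 26 higher X gene ends lay on 23 peaks and included Tcp11x2, H2ap, 4933416I08Rik, Cldn34c4, Akap14, Map7d3, Tsga8, Cypt1, Cypt2 and Ctag2l1. With loess offsets the call of Cldn34c4 was lost, and Akap14 turned from 3.45 to -0.36 and was not called. Tcp11x2 had 8.34, 14.7, 10.4, 11.6 and 14.1 CPM in later cells and 0 counts in all KIT-positive libraries, at least 15.2-fold higher. H2ap, a variant histone gene, had 6.13 to 12.9 CPM and was at least 11.9-fold higher, and 4933416I08Rik, with 3.72 to 9.80 CPM, at least 9.37-fold higher. These 3 were picked after their values were seen. Several of the higher X genes belong to families of near-identical copies, so their reads may be split between copies and their values are uncertain. Over the alternatives, 11 to 33 X gene ends were higher and 293 to 411 lower in 24 settings.

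Autosomal retrogenes that stand in for X-linked parents were compared with those parents. Of 6 retrogenes 4 rose and none fell, and all 6 parents fell, with medians of 0.66 and -1.78. Gene ends of the whole X were lower at 62.3%, with a median of -1.53, so the fall of the parents is near that of the X. On the autosomes 24.5% were higher and 27.5% lower. Pgk2, the testis phosphoglycerate kinase, had 37.0, 48.4, 32.7, 27.0 and 39.6 CPM in later cells against 11.2, 2.14 and 2.33 CPM (2.79 ± 0.40), and its parent Pgk1 had 9.34, 11.6, 6.69, 5.15 and 8.69 CPM against 50.8, 80.3 and 121 CPM (-3.32 ± 0.27). Neither gene overlapped between groups. Pdha2 rose by 1.44 where Pdha1 fell by 2.59, and Rpl10l rose by 0.75 where Rpl10 fell by 1.08. Cstf2t rose by 0.56, a call that was lost in 8 alternative settings, among them without KIT-positive replicate 1, without KIT-positive replicate 2 or without later replicate 4. Utp14b and Rbmxl2 did not pass (-0.38 and 0.05), although Utp14a and Rbmx fell by 2.33 and 0.96.

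The 10 peaks with the largest fitted rise among named protein-coding genes had 0 counts in all 3 KIT-positive libraries, and 7 of them lay in gene bodies. A ranking by fitted fold favours peaks with 0 counts in the lower group, so these zeros follow largely from the rule and are not a result. Nuggc, at chr14:65627820-65628092, had 31.4, 29.4, 52.8, 48.2 and 35.8 CPM and was at least 50.2-fold higher. Trdmt1, a tRNA methyltransferase, at chr2:13514804-13515779, had 23.8 to 46.3 CPM and was at least 48.96-fold higher. Pknox2, a homeobox gene, was at least 51.9-fold higher, and Adam24, a sperm surface protein of the ADAM family whose peak is at the gene end, at least 41.2-fold higher. The others were Dpysl3, St8sia3, Med10, Agbl4, Arsb and Ctnna3, with 42.1-fold as the smallest bound of these 6. Among the 10 with the largest fall, Rcan3, an inhibitor of calcineurin, had 0.667, 0, 2.97, 1.29 and 0 CPM at chr4:135430199-135430747 against 55.3, 35.3 and 80.4 CPM (-5.95 ± 0.49, adjusted p from edgeR 3.57e-15). Syp on the X, at chrX:7648564-7649305, had 0.543 to 2.23 CPM against 48.2 to 60.6 CPM (-5.12 ± 0.34). All 10 of these peaks, like the 10 that rose, did not overlap between groups by the rule that chose them.

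Promoter sequence was described for genes with a start-site peak. For 16073 genes a tested peak lay within 1 kb of the start site given by RefSeq (GRCm38.p6); 3819 of these were higher (23.8%) and 4663 lower (29%). In the 300 bases from 250 before to 50 after the start, the median number of CG dinucleotides was 10 in genes that rose, 20 in genes that fell and 20 in those not called. By fold change, the median was 21 for log2 fold changes of 0 to 1, 5 for 2 to 3 and 2 above 4. Windows with fewer than 5 CG made up 30.5% of the genes that rose and 6.00% of those that fell.

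Of 19 motifs searched on both strands, the CRE-like motif TGANGTCA, which also takes in the full cAMP-response element TGACGTCA, occurred in 604 of the 3819 windows of higher genes (15.8%), in 215 of the 4663 of lower genes (4.61%) and in 8.44% of all windows. By fold change of the peak, its share ran from 4.22% at -3 or below to 31.8% above 4. Within windows of fewer than 5 CG it was 26.1% in higher genes, 7.14% in lower genes and 8.45% in those not called, and with 5 or more CG it was 11.3, 4.45 and 6.96%. The RFX-type motif GTTGCC occurred in 19.8, 10.4 and 12.5% of higher, lower and not called windows (13.7% of all). The GC box GGGCGGG ran the other way, at 25.6, 50.7 and 44.0% (41.6% of all). The exact CRE TGACGTCA occurred in 3.74, 1.20 and 3.25% of the same windows (2.77% of all). Other motifs also differed in share between these sets. In the same order, the SOX motif ACAATGG was in 5.13, 1.84 and 2.27% (2.82% of all), the HSF motif TTCNNGAA in 10.2, 4.93 and 7.18% (7.25% of all) and the longer RFX motif GTTGCCATG in 2.28, 0.343 and 0.553% (0.902% of all). The nuclear receptor motif TGACCT was in 18.7, 10.3 and 11.9% (13.05% of all). Its complement AGGTCA lies inside one form of the CRE-like motif, TGAGGTCA, so the motifs overlap. The AP-1 motif TGACTCA was in 4.56, 2.53 and 3.54% (3.49% of all) and the CCAAT box in 36.0, 46.2 and 34.4% (38.2% of all). These shares are a description without a test, CG content differs between the sets as given, and a match is not a bound site.

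**Figure D5:**
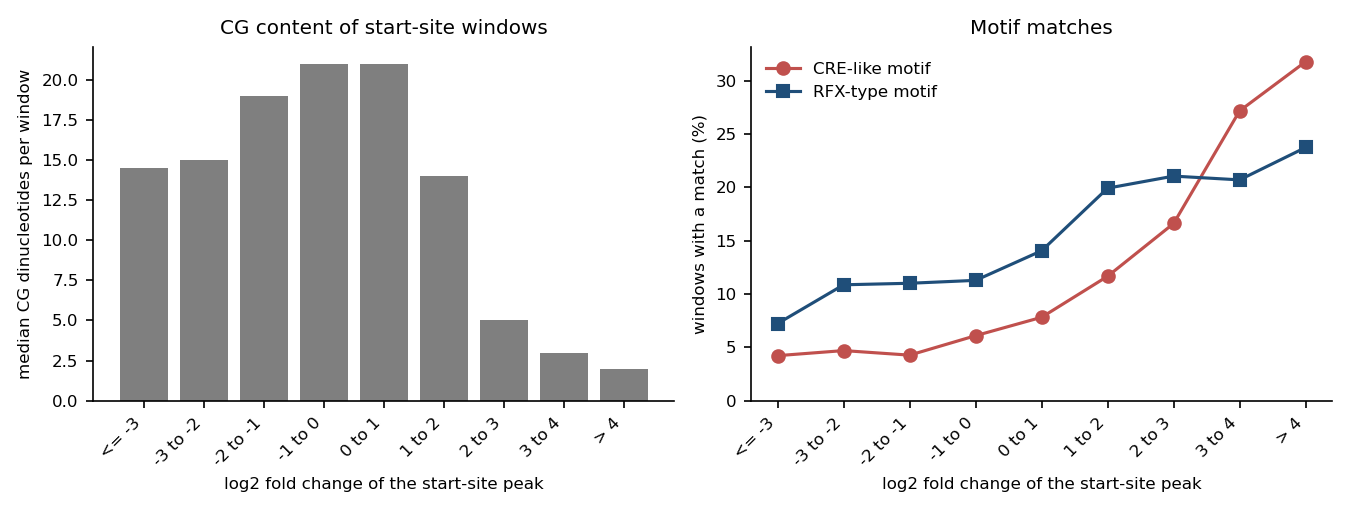
Left, median number of CG dinucleotides in the 300-base start-site window, and right, percent of windows with a match to the CRE-like motif (red) or the RFX-type motif (blue), for genes binned by the log2 fold change of the start-site peak (horizontal axis). From the bin of 0 to 1 to the bin above 4, the median number of CG falls from 21 to 2 and the CRE-like share rises from 7.81 to 31.8%.

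The windows of 4 genes that rose and 2 that fell are shown as examples. They were chosen after the values were seen, and the CRE-like match is in capitals. Coordinates are of GRCm38.p6, sequences are from RefSeq and read 5′ to 3′ on the gene's strand, with the start site after base 250. Hils1 lies at chr11:94967343-94967642 on the plus strand, with 0 CG and the TGAGGTCA form of the match, Prm1 at chr16:10796774-10797073 on the minus strand, with 1 CG, Tnp1 at chr1:73015850-73016149 on the minus strand, with 6 CG, and Spam1 at chr6:24790938-24791237 on the plus strand, with 0 CG. Kit lies at chr5:75574737-75575036 on the plus strand, with 20 CG, and Stra8 at chr6:34920698-34920997 on the plus strand, with 10 CG; neither window has a match.
Hils1: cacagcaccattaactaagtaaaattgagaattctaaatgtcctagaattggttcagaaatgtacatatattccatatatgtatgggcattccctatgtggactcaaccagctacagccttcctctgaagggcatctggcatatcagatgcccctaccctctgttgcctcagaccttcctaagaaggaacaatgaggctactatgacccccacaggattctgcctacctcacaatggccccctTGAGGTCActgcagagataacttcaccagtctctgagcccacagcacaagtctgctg
Prm1: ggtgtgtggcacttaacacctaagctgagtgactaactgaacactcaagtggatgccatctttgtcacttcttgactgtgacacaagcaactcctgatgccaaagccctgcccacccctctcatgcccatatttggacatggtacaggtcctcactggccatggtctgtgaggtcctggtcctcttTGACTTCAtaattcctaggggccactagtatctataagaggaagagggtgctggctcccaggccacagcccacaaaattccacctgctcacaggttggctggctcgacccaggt
Tnp1: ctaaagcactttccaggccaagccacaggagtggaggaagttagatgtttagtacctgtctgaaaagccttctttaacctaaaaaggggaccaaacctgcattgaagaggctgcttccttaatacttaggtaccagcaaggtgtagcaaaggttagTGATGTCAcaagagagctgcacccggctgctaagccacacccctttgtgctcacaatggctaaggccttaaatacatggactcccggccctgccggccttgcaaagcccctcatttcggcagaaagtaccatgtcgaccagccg
Spam1: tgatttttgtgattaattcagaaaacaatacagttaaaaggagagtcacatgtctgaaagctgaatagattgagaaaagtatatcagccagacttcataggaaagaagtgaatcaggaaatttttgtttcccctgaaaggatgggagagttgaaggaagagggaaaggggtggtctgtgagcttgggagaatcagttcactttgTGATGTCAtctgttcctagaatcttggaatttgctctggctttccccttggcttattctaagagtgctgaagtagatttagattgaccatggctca
Kit: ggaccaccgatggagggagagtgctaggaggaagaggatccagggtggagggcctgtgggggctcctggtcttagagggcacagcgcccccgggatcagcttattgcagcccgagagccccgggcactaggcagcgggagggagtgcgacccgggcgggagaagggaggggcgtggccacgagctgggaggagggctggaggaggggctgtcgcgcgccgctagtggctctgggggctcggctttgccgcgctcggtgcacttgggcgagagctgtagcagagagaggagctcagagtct
Stra8: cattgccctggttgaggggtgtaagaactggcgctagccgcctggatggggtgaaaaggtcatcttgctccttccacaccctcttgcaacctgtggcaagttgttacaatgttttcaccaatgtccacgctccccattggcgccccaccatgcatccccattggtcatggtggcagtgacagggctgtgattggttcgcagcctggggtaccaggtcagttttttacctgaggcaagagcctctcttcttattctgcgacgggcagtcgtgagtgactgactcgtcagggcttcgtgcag

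The matches begin 7 bases before the start site in Hils1, 64 before in Prm1, 94 before in Tnp1 and 46 before in Spam1. Among windows of the gene lists, a CRE-like match was in 6 of 14 acrosome genes, 4 of 13 genes of nuclear condensation, 4 of 25 flagellum genes and 2 of 8 testis isozymes. It was in 0 of 15 differentiating spermatogonial genes, 0 of 18 piRNA genes and 1 of 23 replication genes. Undifferentiated spermatogonial genes had it in 2 of 15, recombination genes in 2 of 20 and axis genes in 1 of 13, beside 8.44% of all windows. The RFX-type motif was in 8 of 25 flagellum genes, 2 of 14 acrosome genes, 3 of 13 genes of nuclear condensation and 2 of 8 testis isozymes. Undifferentiated spermatogonial genes had it in 4 of 15, differentiating ones in 1 of 15 and piRNA genes in 3 of 18. For replication, axis and recombination genes it was 2 of 23, 2 of 13 and 2 of 20, beside 13.7% of all windows. These small counts were not tested. Several genes without a match also rose, among them Acrv1, Catsper3, Ldhc, Pgk2 and Spz1. In the other direction, Nanos2 has 0 CG and a CRE-like match, TGACCTCA, in its window, and its peak fell by 2.93.

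MicroRNA loci were described where a tested peak lay within 1 kb of the hairpin, which held for 214 of 1005 hairpins in RefSeq; 54 of their 229 peaks were higher and 60 lower, near the 29.2 and 22.8% of all peaks, so single loci are described and not the class. The family of Mir34b, Mir34c, Mir449a and Mir449c, which shares 1 seed and is known from meiotic cells and multiciliated cells, is shown because peaks at 2 of its loci were higher. Mature sequences from RefSeq (GRCm38.p6) are given at chr9:51103610-51103632 on the minus strand for the first, chr13:113037549-113037570 on the plus strand for the second and chr13:113036008-113036028 on the plus strand for the last, each with the seed, bases 2 to 8, in capitals.
mmu-miR-34b-5p: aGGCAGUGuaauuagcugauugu
mmu-miR-449a-5p: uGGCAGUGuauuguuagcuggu
mmu-miR-449c-5p: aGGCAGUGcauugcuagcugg

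At Mir34b and Mir34c on chromosome 9, 3 peaks were higher. The peak at chr9:51102366-51102800, 234 bp from the Mir34c hairpin, had 22.3, 21.4, 17.1, 20.6 and 25.5 CPM in later cells and 1.49, 0 and 0 CPM in KIT-positive cells, and on 2 counts the ratio was 43.4 with a 95% counting interval of 11.9 to 361. The peak over Mir34b itself, chr9:51103427-51104279, had 49.6 to 84.4 CPM against 8.15 to 13.9 CPM (2.47 ± 0.31). A peak 589 bp from Mir449c had 18.7 to 28.3 CPM against 5.82 to 8.97 CPM (1.71 ± 0.41), a call lost when later replicates 1 and 3 and KIT-positive replicate 3 were left out together, and the peak over the Mir449c hairpin did not pass (-0.48 ± 0.50). A peak 998 bp from Mir10a, in a Hox cluster, fell by 2.89 ± 0.61. These loci were picked after their values were seen.

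Of the markers of somatic testis cells, some were lower in the later libraries, some did not pass and Des was higher. Of 9 tested Sertoli markers none rose and 4 fell (Dhh, Wt1, Sox9 and Clu), and the 9 peaks summed to 88.5 to 105 CPM in later libraries against 178 to 186 CPM in KIT-positive ones. Both tested Leydig markers, Cyp11a1 and Lhcgr, fell (-1.57 and -1.05) and summed to 12.9 to 19.0 against 32.1 to 50.8 CPM, and Star, Cyp17a1 and Insl3 had no tested peak. The call of Lhcgr was lost in 10 alternative settings, among them DESeq2 and loess offsets and leaving out KIT-positive replicate 2 (-0.97) or 3 (-1.03) or later replicate 1 (-0.88) or 2 (-0.95). Of 5 peritubular or endothelial markers 4 fell and Des rose (2.13 ± 0.43), with sums of 44.0 to 74.6 against 79.2 to 111 CPM. The Des peak lay 872 bp from the nearest end of the gene, and whether it serves Des was not tested. The only tested immune marker, Cd68, did not pass (-1.18) and had at most 3.67 CPM in any later library, and Ptprc, Csf1r and Adgre1 had no tested peak. The part of these cells in the results was not tested. Among genes often taken as references, X-linked Hprt, Gapdh, Ppia and Rplp0 fell, and Actb, Tbp, B2m, Polr2a, Psmb2 and Eef2 did not pass. Over all gene ends 28.6% were lower.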

How the data were processed

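ATAC-seq counts were deposited by the authors as 1 table of raw counts for 96049 peaks in 22 libraries, with no normalization per the file headers. The submitters' processing notes name FastQC, Bowtie2, SAMtools and Picard and the builds mm10, GRCm38 and hg19. The peak caller and whether duplicates were removed are not given in the sources used here, nor is whether peak starts count from 0 or 1, and starts are used as deposited.

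Libraries were grouped by the labels. Peaks were filtered with filterByExpr, scaled by TMM and tested with edgeR 4.0.16 (R 4.3.3) in a quasi-likelihood fit of the 13 heterozygous libraries with 9 residual degrees of freedom, contrasting later germ cells with KIT-positive spermatogonia, at a Benjamini-Hochberg adjusted p under 0.05. The script was run on simulated data in which few peaks changed. That run does not test the scaling under a change as wide as the one found here. A gene was given the peak within 1 kb of either RefSeq end that had the highest mean count. Standard errors are the fold change divided by the root of F. Bounds of folds use 3 counts over the group at 0. Total counts per library set the precision.

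Named genes were Hils1, Smcp, Odf1, Acr, Kit, Tert, Terc and Gt(ROSA)26Sor, up to 4 genes of smallest p in each of 24 lists, and the 10 peaks that rose and 10 that fell most at protein-coding genes without overlap and with a mean of at least 10 CPM. Other list members are named to account for counts. X genes, microRNA loci, gene families and promoters shown were added after values were seen. The members and lists were chosen with earlier results of these data known. Alternatives were DESeq2 1.42.0, total counts, loess offsets (limma 3.58.1), no filter, other sample sets, a fold of 1.5, a replicate block, other gene-end windows and leaving out each library. Restricting the later group by title, and leaving out later replicates 1 and 3 with KIT-positive replicate 3 (the deepest later library, the later library whose name gives a different number, and the KIT-positive library with most even counts), were chosen after seeing the data. The result of 1 reference gene is not reported here.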

Additional observations from a re-analysis of the deposited data

Results flagged for a closer look

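In 128 sets of 5 later libraries, 1 library lay far from the other 4 in 5 sets; chance gives about 1 in 20. At Tert, later replicate 5 had 9.77 CPM, above the 5.51 to 6.69 CPM of the others and below every KIT-positive library. At Asph, later replicate 5 had 1.63 CPM (3 counts) and the others 0. At Myom3 the same library had 2.17 CPM (4 counts) and the others 0. At the Mir34c peak that starts at 51101755, later replicate 3 had 21.6 CPM, below the 37.7 to 42.4 CPM of the others and above the 4.08 to 5.98 CPM of KIT-positive libraries. At Mir717, later replicate 1 had 0.667 CPM (2 counts) and the others 0.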

How the results depend on the processing

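The counts of peaks moved by over 1.5 times in 2 alternatives, both with fewer libraries: with the 2 later libraries named Spermatocyte only, 13097 peaks were higher and 9957 lower, and without later replicates 1 and 3 and KIT-positive replicate 3, 13154 were higher and 10989 lower. Leaving out 1 library at a time gave 17309 to 20369 higher and 13848 to 16225 lower peaks, and 4220 to 4809 higher and 4848 to 5867 lower gene ends. The share differences then ran from -0.994 to -0.895 percentage points for X, -0.0828 to -0.0720 for Y, -8.87 to -4.00 for gene ends, 0.778 to 2.87 for gene bodies, 3.22 to 6.01 for intergenic peaks and -6.53 to -4.15 for the 1000 strongest peaks. Of called gene ends 45.5% were higher with TMM, 56.6% with DESeq2 and 53.4% with loess offsets. With a replicate block by title number 17821 peaks were higher and 12911 lower, and 4277 gene ends were higher and 5971 lower. A check of pairing used a different r from that between libraries above. It was -0.0508 to 0.00403 for same-numbered libraries, and none of the 5 later libraries was highest with its own number. These values show no pairing by number but cannot exclude it. Of 2528 values of 122 named results, 2458 kept direction and call, 62 lost the call, 6 gained it and 2 reversed: Cycs (0.13 in all libraries, -0.11 to 0.40 leaving out 1 library, lowest without KIT-positive replicate 1) and Akap14 (-0.36 with loess offsets); the cause was not tested. Sites with few counts in the shallower KIT-positive libraries have wide intervals.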

Other observations

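Gene families were picked after their values were seen and are given as counts, without a test, beside the 23.9% higher and 28.6% lower over all gene ends. Of 325 tested genes of the RIKEN clone series of 1700010D01Rik, 225 were higher and 26 lower (median log2 fold change 1.94), and of 497 of the series of 4933416I08Rik, 338 were higher and 39 lower (2.06). Of 25 Adam genes, membrane proteases that include sperm surface proteins, 17 were higher and 4 lower, and of 25 Spata genes 19 were higher and 2 lower. Of 62 histone genes, which share 43 peaks, 40 were lower and 6 higher, with a median of -1.74; the 6 were the linker histone genes H1f6, H1f7 and H1f10 and the neighbours H2ac20, H2ac21 and H2bc21, which share a peak. Of 19 Sox genes 15 were lower and 2 higher, the latter Sox30 and Sox6. Of 73 ribosomal protein genes 15 were higher and 19 lower, with a median of 0.10, near the shares over all gene ends. Near-identical copies in these families could share reads.

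Among the later libraries, replicates 1 and 2, titled spermatocytes, had more counts than replicates 3 to 5 at some X genes and fewer at Spaca1. Sox3 had 8.67 and 7.35 CPM against 1.93 to 3.80 CPM, Pola1 had 8.00 and 12.9 against 1.29 to 4.89 CPM, and Spaca1 had 57.0 and 58.8 against 84.7 to 97.1 CPM. These values were noticed after the fact and were not tested.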
